A study of Oryza sativa with 4 samples.

Results

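The table of ribosome profiling scores from heat-treated rice shoots holds 4 genes of the description "heavy metal transport/detoxification protein domain" whose scores were far higher at 42 °C than at 22 °C: OS02T0584700, OS02T0584800, OS02T0585200 and OS03T0152000. They are 4 of 22 genes with that description and of 10455 genes in all. They were chosen by the ratio of their scores between the temperatures, which was large, so those ratios are given as a description, and nothing below tests them. All 4 genes are above 0 at both temperatures and each is listed with 1 transcript, of suffix 01.

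Ribosome profiling sequences the pieces of mRNA that ribosomes protect, so its reads mark ribosomes engaged in translation. Wild-type rice plants 2 weeks old were turned upside down with their shoots in water at 22 °C, the control, or at 42 °C, the heat treatment, each for 10 min. Each of the 4 footprint libraries came from 10 shoots, with 2 libraries described as biological replicates at each temperature. All groups were wild type, inverted and immersed alike, and no shoots left upright in air were analysed here. The study's purpose was to compare translational efficiency, the amount of ribosome footprint relative to mRNA, between the temperatures.

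The heavy metal-associated domain is a small fold that binds metal ions such as copper, zinc or cadmium through a pair of cysteines. It occurs in copper chaperones, which hand copper to other proteins, in metal-pumping ATPases, and in a large plant family in which the domain is joined to a tail that can carry a lipid anchor. Plant proteins with the domain have been linked to metal tolerance, to abiotic stress and, in rice, to interactions with the blast fungus. What the 4 proteins do individually is not given in the table.

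For each transcript the deposited table holds 1 score at each temperature and no value per library. Scores are taken to be translational efficiencies because that was the purpose of the libraries, but no header gives their formula, so a linear ratio and a log of 1 plus a ratio cannot be told apart. There is no spread between replicates, the depth of each library is unknown, and no difference between the temperatures carries a p-value. A higher score can come from more footprint or from less mRNA, and the table does not let them be told apart. Scores above 0 at both temperatures were found in 9280 genes, for which the 42 over 22 °C ratio was taken. Differences of at least 2-fold were counted in each direction. Photosynthetic genes, which mark green shoot tissue, were present. All 13 genes described as chlorophyll a/b-binding and all 5 described as the Rubisco small subunit were above 0 at both temperatures. So were 9280 of all 10455 genes, and the scores are not read as abundances, so this says little about the tissue. The lowest score of the 13 at 42 °C was 0.00024.

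The 4 genes had low to middling scores at 22 °C and high scores at 42 °C. OS02T0585200 had a score of 0.0305 at 22 °C and 0.489 at 42 °C, which is 16.0-fold higher (log2 ratio 4.00). OS02T0584800 had a score of 0.0672 at 22 °C and 0.530 at 42 °C, which is 7.88-fold higher (log2 ratio 2.98). OS03T0152000 had a score of 0.0804 at 22 °C and 0.533 at 42 °C, which is 6.62-fold higher (log2 ratio 2.73). All 3 of these genes thus ended within a narrow range of scores at 42 °C. OS02T0584700 had the highest score of the 4 at both temperatures, 0.109 at 22 °C and 0.666 at 42 °C, and the lowest ratio, 6.11-fold (log2 ratio 2.61). The scores of the 4 genes did not overlap between the temperatures, as the choice of the genes by their ratios made likely.

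**Figure D1:**
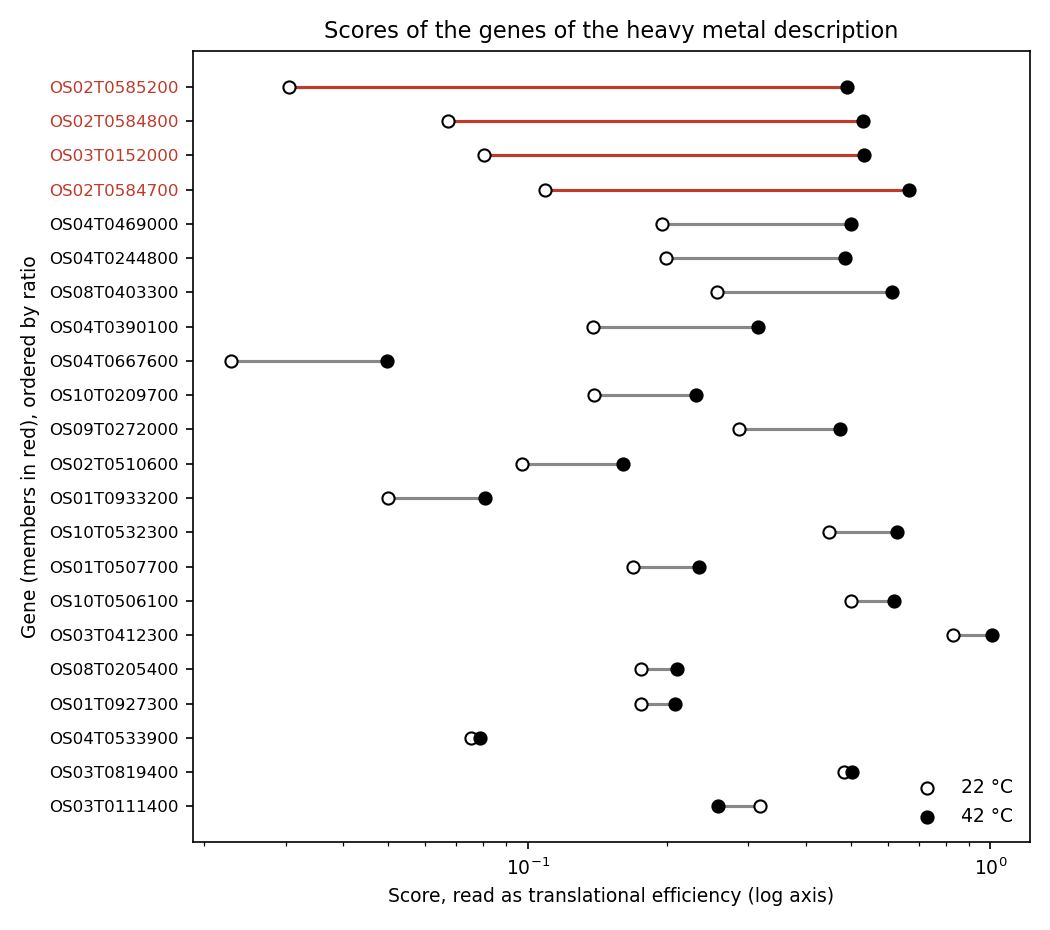
Score at 22 °C (open circles) and 42 °C (filled circles) for each of the 22 genes of the description, on a log axis, ordered by ratio from top to bottom, with 1 deposited value per gene and temperature and no error. The 4 members, in red, run from 0.0305 to 0.109 at 22 °C up to 0.489 to 0.666 at 42 °C, and the bottom gene, OS03T0111400, is the only one lower at 42 °C.

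Differences among the 4 genes lay mainly at 22 °C. Their scores spanned 3.57-fold at 22 °C and 1.36-fold at 42 °C, so the order of their ratios is the reverse of the order of their scores at 22 °C. By score at 22 °C, OS02T0585200 stood above 23.3% of all genes above 0 at both temperatures, OS02T0584800 above 39.9%, OS03T0152000 above 44.3% and OS02T0584700 above 52.4%. By score at 42 °C the same genes stood above 88.5%, 90.03%, 90.1% and 93.4%. The 4 therefore went from the lower and middle part of the table to its upper end. Which neighbours in these orders differ beyond replicate error cannot be judged, because the table has no replicates.

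All 4 genes were at least 2-fold higher at 42 °C, against 16.1% of all 9280 genes, a contrast that the choice of the genes sets. By ratio they ranked 142nd, 247th, 292nd and 317th of the 9280, and 3.42% of the genes had a ratio at least as large as that of OS02T0584700. Many genes with larger ratios had low scores. Only 9 genes (0.0970%), the 4 members among them, matched or passed the lowest member both in ratio and in score at 42 °C. The other 5 were named after their scores were seen. OS01T0972000, a RING/FYVE/PHD-type zinc finger protein, had 0.0590 at 22 °C and 0.527 at 42 °C. The remaining genes were OS02T0797600 (0.0360 and 0.582), OS08T0414900 (0.0384 and 0.615), OS04T0679400 (0.0822 and 0.716) and OS03T0131800 (0.0601 and 0.494), and their descriptions do not say what the proteins are. Of 2697 other genes with a 22 °C score within the range of the members, 6 (0.222%) had a score at 42 °C at least as high as the lowest of the members. In ratio, 412 (15.3%) of the 2697 lay at least 2-fold higher, whereas 16 (0.593%) had a ratio at least as large as the lowest member's. The members were picked on that ratio, so these shares are a description.

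**Figure D2:**
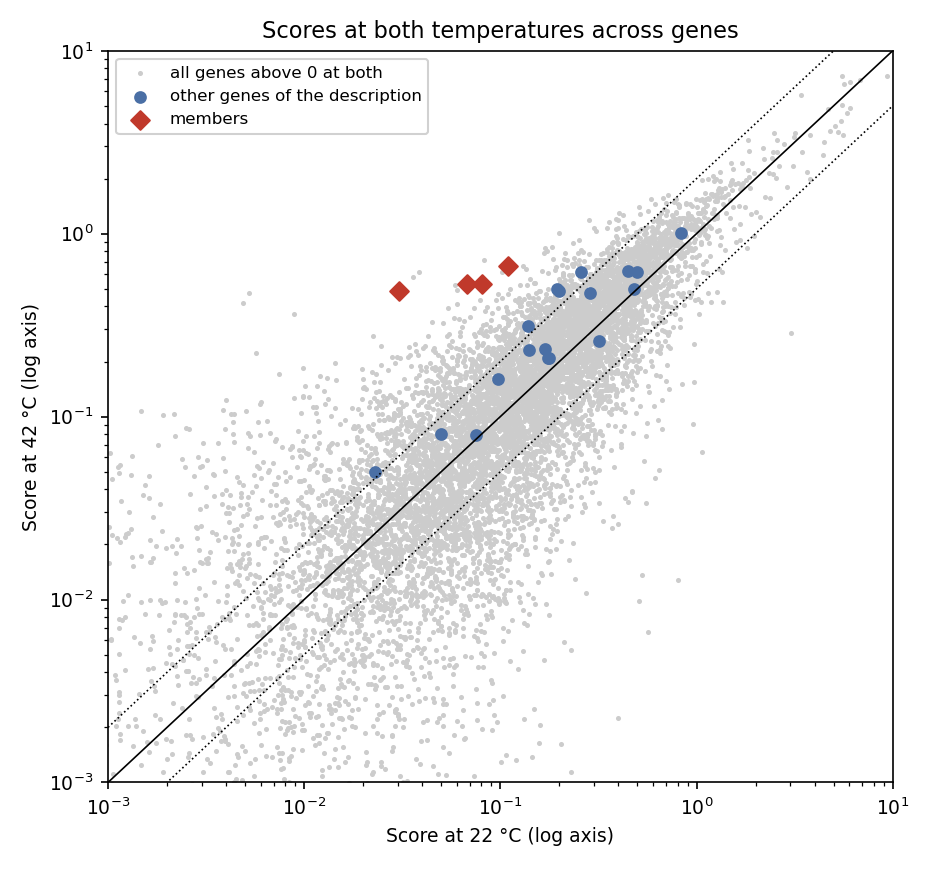
Score at 22 °C (x axis) against score at 42 °C (y axis), both on log axes, for all genes above 0 at both temperatures (grey), the 18 other genes of the description (blue) and the 4 members (red diamonds), with equal scores as a solid line and 2-fold differences as dotted lines. The members lie at the upper edge of the cloud, with 42 °C scores of 0.489 to 0.666, and most blue points lie between the solid and the upper dotted line; 399 genes with a score under 0.001 are outside the axes.

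The members on chromosome 2 are neighbours in the table. OS02T0584700, OS02T0584800 and OS02T0585200 follow each other in locus number with 0 other listed genes between them, and they are the only genes of the description next to one another. The next closest pair, OS01T0927300 and OS01T0933200, has 10 listed genes between them. The fourth member, OS03T0152000, is on chromosome 3 by its locus number, with 117 listed genes between it and OS03T0111400. Genes that lie side by side and share a domain can be near-identical copies, and reads may then be divided between them. Sequences of these genes were not analysed here, so how alike the copies are is not known from these data, and their 3 scores may not be independent measurements.

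Loci numbered on either side did not show the same jump, but the members had been picked for theirs. Within 3000 locus numbers of the chromosome 2 members, 6 other genes are listed, of which 4 were above 0 at both temperatures and 2 were at 0 at 42 °C. Of the 4, 3 were higher at 42 °C and 1 was lower, with a median log2 ratio of 0.27. Over all genes 51.1% were higher and 16.1% at least 2-fold higher. The single gene past 2-fold was OS02T0583000, a hypothetical protein and the last listed gene before the cluster. It had 0.0171 at 22 °C and 0.0526 at 42 °C, a 3.07-fold difference. OS02T0586400, described as a small GTP-binding protein and the next listed gene after the cluster, had 0.185 and 0.194. The highest score among these 6 genes at 42 °C was thus below that of every member.

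**Figure D3:**
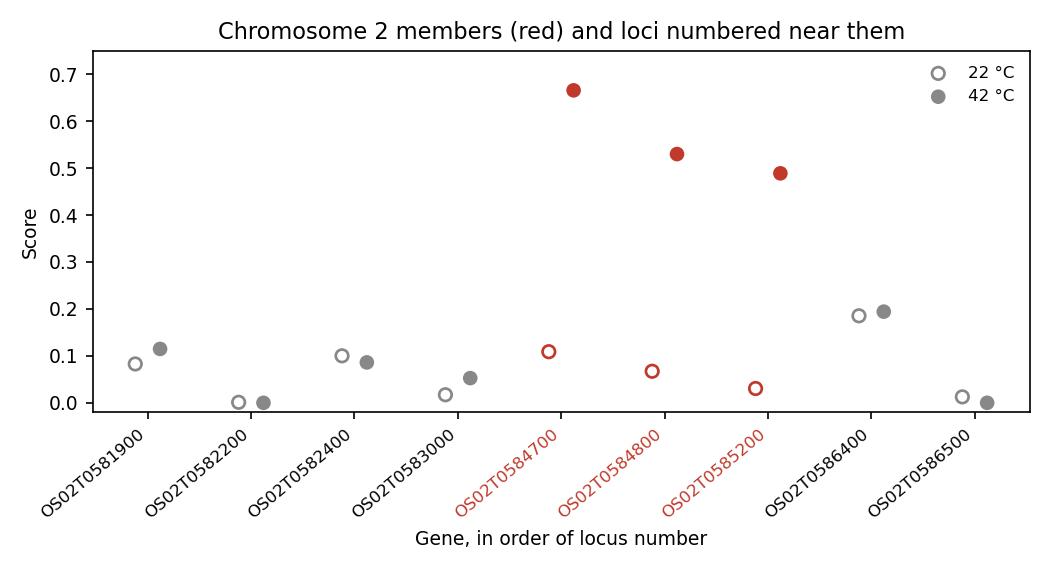
Scores at 22 °C (open circles) and 42 °C (filled circles) on a linear axis for the 3 chromosome 2 members (red) and the 6 other listed genes numbered within 3000 of them (grey), in order of locus number. The members at 42 °C stand at 0.489 to 0.666, and the 6 grey genes stay at or under 0.194 at both temperatures.

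The other 18 genes of the description were mostly higher at 42 °C too, by much less. Of these, 17 (94.4%) were higher and 1 was lower, against 51.1% higher among all genes. Their median log2 ratio was 0.59, or 1.51-fold, against 0.03 over all genes. At least 2-fold higher were 5 of the 18 (27.8%), against 16.1% of all genes, and 0 were at least 2-fold lower, against 21.6%. The balance over all genes differed with the level of the scores. Where the mean of both scores was 0.2 or more, 65.7% of genes were higher and 11.6% at least 2-fold higher, with a median log2 ratio of 0.27. No count of the 18 is given at that level, since some of them reach it only through their score at 42 °C. When all ratios were centred on the genes of that level, a shift of 0.27 on the log2 scale, 13 of the 18 (72.2%) were higher, against 40.4% of all genes, and 2 (11.1%) were at least 2-fold higher, against 11.6%. The median of the 18 was then 0.33. The share of the 18 past 2-fold then lay near that of all genes. The 18 are what remained once the 4 genes picked for large ratios were set apart, which lowers that share. With those 4 included, 9 of the 22 (40.9%) were at least 2-fold higher, and 6 (27.3%) after the centring. Including genes picked for large ratios raises these shares, so they are a description too.

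A gap separates the members from the other genes of the description, as the choice of the members by ratio made likely. The lowest member ratio was 6.11-fold, in OS02T0584700, and the highest ratio outside was 2.56-fold, in OS04T0469000. OS04T0469000 had a score of 0.195 at 22 °C and 0.499 at 42 °C. OS04T0244800 had almost the same pair of scores, 0.199 and 0.484 (2.44-fold). OS08T0403300 had 0.257 and 0.614, a 2.39-fold difference. These 3 genes reached scores at 42 °C within or just under the range of the members, but from higher scores at 22 °C. The other genes past 2-fold were OS04T0390100, with 0.139 and 0.314, and OS04T0667600, with the lowest scores of the description at both temperatures, 0.0228 and 0.0498. By locus number, 4 of these 5 genes are on chromosome 4, which holds 5 of the 22 genes of the description.

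Of the 12 genes that were higher by less than 2-fold, 4 lay between 1.62-fold and 1.66-fold. These were OS10T0209700 (0.139 and 0.231), OS09T0272000 (0.286 and 0.473), OS02T0510600 (0.0974 and 0.161) and OS01T0933200 (0.0499 and 0.0807). OS02T0510600 is the only one of the 22 genes with more than 1 transcript, and its transcripts differed: OS02T0510600-01 had 0.0977 at 22 °C and 0.220 at 42 °C, a log2 ratio of 1.17, whereas OS02T0510600-02 had 0.0972 and 0.101, a log2 ratio of 0.05. Next came OS10T0532300 (0.449 and 0.629) and OS01T0507700 (0.169 and 0.235), with ratios of 1.40 and 1.39. OS10T0506100 (0.499 and 0.620), OS03T0412300 (0.831 and 1.01), OS08T0205400 (0.176 and 0.210) and OS01T0927300 (0.176 and 0.208) had ratios of 1.18 to 1.24. The scores of OS04T0533900 (0.0755 and 0.0789) and OS03T0819400 (0.482 and 0.501) had ratios of 1.04. The single lower gene, OS03T0111400, had 0.318 at 22 °C and 0.258 at 42 °C.

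High scores at 22 °C went with small ratios within the description. The 22 °C score is the divisor of the ratio, which favours this pattern, and it was not examined over all genes. The 5 other genes with a score of at least 0.3 at 22 °C had ratios between 0.814 and 1.40. Outside the members, 4 genes had scores at or below that of OS02T0584700 at 22 °C. Their ratios were between 1.04 and 2.18, with scores at 42 °C of 0.0498 to 0.161. Genes with large ratios had been set apart as members, so the smaller ratios of these 4 genes follow in part from that choice. The scores of the 18 spanned 36.4-fold at 22 °C and 20.2-fold at 42 °C, more than those of the 4 members. Such a span tends to widen with the number of genes, so 18 genes and 4 picked genes do not compare evenly. At 42 °C the median of the 18 was 0.286 and that of the members 0.531. At 22 °C the order was the opposite, 0.186 and 0.0738. The choice of the members by ratio favours both orders, so they are a description.

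A few genes carry the words heavy metal in other descriptions. OS06T0690700, similar to the heavy metal ATPase HMA1, a pump that moves metals across the chloroplast envelope in Arabidopsis, had low scores of 0.0173 at 22 °C and 0.0351 at 42 °C, just past 2-fold. The remaining pair of genes, described by a heavy metal-associated domain, were within 2-fold and went opposite ways, 1 higher and 1 lower.

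Other metal-handling genes did not reach the ratio of the lowest member, 6.11-fold, but the 4 members had been picked for large ratios. Closest were OS03T0388100 at 5.75-fold and OS05T0128400 at 5.09-fold, both with scores under 0.05. Lists of other metal-handling genes were made from words in the descriptions. Together they held 44 genes, of which 34 were above 0 at both temperatures. Of the 34, 22 were higher and 12 lower at 42 °C, 6 (17.6%) past 2-fold higher and 1 past 2-fold lower, with a median log2 ratio of 0.34. The share past 2-fold higher is close to the 16.1% of all genes. Past 2-fold lower were 21.6% of all genes. With ratios centred on genes of mean 0.2 or more, 18 were higher and 16 lower, 3 past 2-fold higher and 5 past 2-fold lower, and the median was 0.07. Of all genes 40.4% were then higher and 11.6% past 2-fold higher. The share of all genes past 2-fold lower after the centring was not counted, so the 5 lower genes cannot be set against it. A further 7 of the 44 genes were at 0 at 42 °C alone, 3 at both temperatures and 0 at 22 °C alone. Among all 10455 genes, 480 were at 0 at 42 °C alone, 461 at both and 234 at 22 °C alone.

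Metallothioneins, small cysteine-rich proteins that bind and buffer metals, had high scores with small differences. Of 7 genes 6 were higher and 1 lower, none past 2-fold, with a median log2 ratio of 0.16 that turned to -0.10 under the centring. Over all genes 51.1% were higher, and 65.7% where the mean score was 0.2 or more. Under the centring 3 of the 7 were higher and 4 lower, against 40.4% of all genes higher. Copper chaperones deliver copper to pumps and enzymes, and the single gene so described, OS02T0530100, had 0.342 at 22 °C and 0.573 at 42 °C. This locus has 2 transcripts and is also described as similar to a C4-dicarboxylate or malic acid transporter. The scores of the metallothioneins and of OS02T0530100 at 22 °C were all above those of the 4 members.

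P-type ATPases pump ions across membranes with the energy of ATP, and the list holds calcium pumps and a phospholipid pump beside metal pumps. Of 11 genes 6 were above 0 at both temperatures, 5 higher and 1 lower, with scores that were mostly low. For comparison, 51.1% of all genes were higher, 16.1% past 2-fold higher and 21.6% past 2-fold lower. OS03T0388100, described by the P-type ATPase domain alone, had 0.00681 and 0.0392, and HMA1 was the other gene past 2-fold. Transporters move metal ions into or out of cells and compartments. Of 15 listed genes 11 were above 0 at both temperatures, 5 higher and 6 lower, with a median log2 ratio of -0.27. Past 2-fold higher were OS05T0128400, similar to the zinc transporter MTP1 of Arabidopsis (0.00429 and 0.0218), and OS03T0226400, similar to metal tolerance protein 4 (0.0159 and 0.0361). Under the centring 1 gene of the ATPase list and 1 of the transporter list were past 2-fold higher, against 11.6% of all genes. OS01T0837800, similar to cation diffusion facilitator 8, was more than 2-fold lower (0.0185 and 0.00664). The transporter list also takes in OS07T0155600, an Nramp family protein described as acting in ethylene signalling, which was at 0 at 42 °C. Every one of these transporters and pumps past 2-fold had a score under 0.05 at both temperatures.

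Enzymes that make metal-binding molecules went both ways. Nicotianamine synthase 1 (OS03T0307300), which makes a chelator of iron and other metals, had 0.255 and 0.176. OS06T0102300, described as phytochelatin synthase, which makes cadmium-binding peptides, had 0.0131 and 0.0192. A gene described as phytochelatin synthetase-like, OS05T0386800, is also described as COBRA-like, a kind of cell wall protein, and had 0.168 and 0.0897. Glutathione is the building block of phytochelatins. Of the 4 genes for its synthesis above 0 at both temperatures 3 were higher and 1 lower. Past 2-fold were the glutathione synthetases OS12T0528400 (0.00816 and 0.0340) and OS11T0642800 (0.128 and 0.260). Among all genes 51.1% were higher and 16.1% past 2-fold higher. Under the centring 2 of these 4 genes were higher, 2 lower and 1 past 2-fold higher, against 40.4% higher and 11.6% past 2-fold among all genes. Of the 2 ferritins, which store iron, OS12T0106000 had 0.107 and 0.141 and OS11T0106700 had 0.370 and 0.359.

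**Figure D4:**
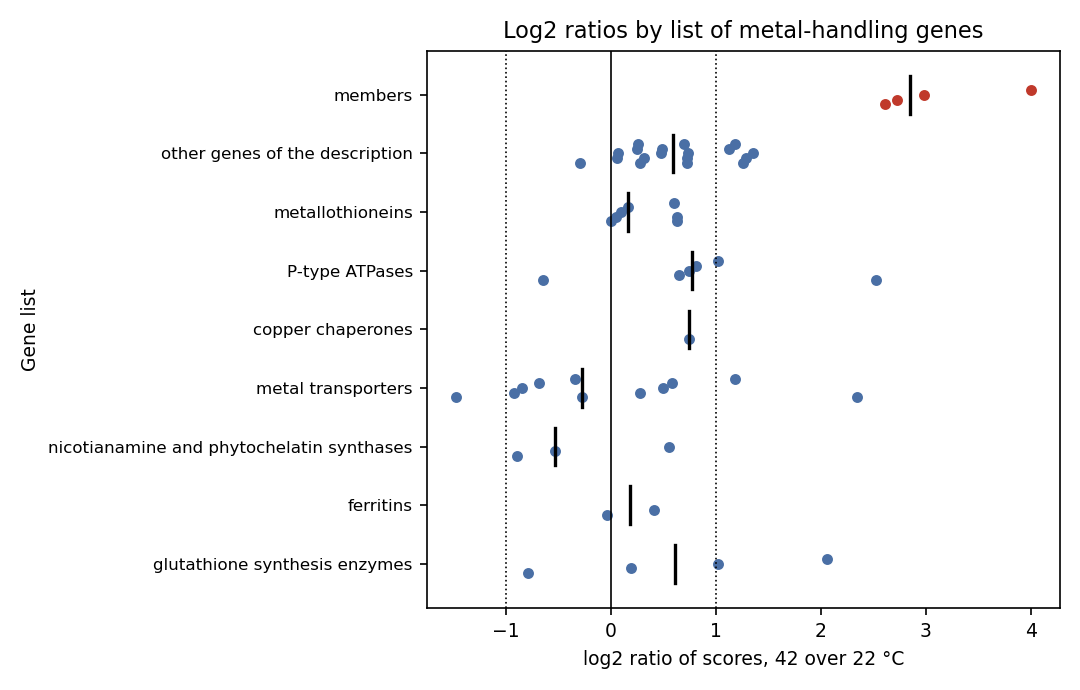
Log2 ratio of scores, 42 over 22 °C, for each gene above 0 at both temperatures (points) in the 4 members (red), the 18 other genes of the description and each list of metal-handling genes (blue), with the median of each as a black bar and 2-fold differences as dotted lines; points are spread vertically for legibility. The members lie between 2.61 and 4.00, and the highest point of any other list is OS03T0388100 at 2.52.

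Genes of other described kinds came close to the members in their pair of scores. Likeness was the Euclidean distance between log2 scores over the 2 temperatures, which is a thin basis, and a small value means alike. Genes described as hypothetical, as of unknown function or by a clone name alone were left out of this search. Those among the 4 nearest of any description are named where they lay nearer. Nearest to OS02T0584700 were OS03T0741100, a bHLH domain protein (0.102 and 0.615; distance 0.15), and OS02T0684400, similar to OXIDATIVE STRESS 3 (0.135 and 0.639; distance 0.32), with the conserved hypothetical OS05T0516700 (0.131 and 0.668; distance 0.26) between them. Nearest to OS02T0584800 were the zinc finger gene OS01T0972000 (distance 0.19) and OS07T0684100, similar to thioredoxin-like 1 (0.0792 and 0.434; distance 0.37), with the clone-named OS03T0131800 (distance 0.19) between them. OS07T0684100 was also the nearest to OS03T0152000 (distance 0.30), followed by OS03T0206700, a BTB/POZ protein (0.0970 and 0.469; distance 0.33). Nearest to OS02T0585200 over all descriptions were the hypothetical genes OS02T0797600 (distance 0.35) and OS08T0414900 (distance 0.47). Among genes of a described kind they were OS06T0677700, a YT521-B-like protein (0.0446 and 0.331; distance 0.79), and OS08T0168000, similar to a sesquiterpene synthase (0.0226 and 0.274; distance 0.94). The clone-named OS04T0532400 (0.0539 and 0.392; distance 0.88) lay between them.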

How the data were processed

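Footprint libraries numbered 4, 2 per temperature. The submitters' processing notes name cutadapt and Bowtie2, without versions. Not given in the sources used here are genome build, annotation and the formula of the values. The authors' deposited table holds 14122 transcripts with 1 score per temperature and their difference, which matched the 2 scores within 1e-05 in all 14122. Depth and replicate values are unknown, so no test between temperatures was run. Transcript scores were averaged per locus into 10455 genes. Of these, 234 were at 0 at 22 °C alone, 480 at 42 °C alone and 461 at both; these have no ratio.

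The members and lists were chosen with earlier results of these data known. Named are the members, all genes of their description, up to 3 genes past 2-fold per metal list and direction, nearby loci past 2-fold, and the 2 nearest genes of a described kind per member, leaving out hypothetical proteins and clone names. Any further gene was picked for naming with its scores in view, those of the metal lists within 2-fold included. The RefSeq gene table of assembly ASM3414082v1 matched 0 of the 22 genes by locus, so no coordinates or sequences are given. Python 3.11.15, numpy 2.4.6, pandas 2.3.3 and matplotlib 3.10.9 were used.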

Additional observations from a re-analysis of the deposited data

How the results depend on the processing

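The 4 members were picked on their ratios, so their place past 2-fold under other settings is no sign of stability. Each has 1 transcript of suffix 01, so taking each transcript on its own, the lowest-numbered transcript or leaving out suffix 00 could not change them. Minimum mean scores of 0.05 and 0.2 could not change their ratios either, and they pass 0.2 through their score at 42 °C. All 4 also stayed past 2-fold with 0.1 added to every score, with scores read as log2(1 + ratio), and with centring on all genes or on genes of mean 0.2 or more, and they passed thresholds of 1.5-fold and 3-fold. The log2 ratio of OS02T0585200 ranged from 2.17 to 4.24, that of OS02T0584800 from 1.91 to 3.22, that of OS03T0152000 from 1.81 to 2.96 and that of OS02T0584700 from 1.87 to 2.90. The low ends come from adding 0.1, which shrinks ratios of low scores. Of the other 18 genes of the description, 5 were past 2-fold higher, 9 past 1.5-fold (27.8% of all genes) and 0 past 3-fold (8.20%). With 0.1 added there were 2 (2.62% of all genes), and with centring on genes of mean 0.2 or more also 2. Of 34 genes of the metal lists, 6 were past 2-fold higher and 1 lower, 13 and 7 past 1.5-fold, and 3 and 0 past 3-fold. Of 56 transcripts taken on their own 10 were past 2-fold higher (16.9% of all transcripts) and 9 lower. At a minimum mean of 0.05 it was 1 of 16 genes higher (13.9% of all genes) and at 0.2 it was 0 of 12 (11.6%), with 0 lower at either. With 0.1 added it was 0 in both directions. With centring on genes of mean 0.2 or more 3 were higher (11.6% of all genes) and 5 lower, so that lower outnumbered higher. Over all genes lower outnumbered higher even without centring, 21.6% against 16.1% past 2-fold. The share lower over all genes after centring was not counted. With the lowest-numbered transcript 8 were higher and 3 lower. No direction of a list median or of a member reversed for the 4 members, the 18 genes or the joined metal lists under these alternatives. No paired analysis was possible because the table holds 1 value per temperature, and no replicate could be left out for the same reason.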
